A study of Homo sapiens with 6 samples.

Results

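The genes described here are 49 nucleolar factors of ribosome biogenesis. They were chosen by name from their roles in ribosomal RNA transcription, modification, cleavage and subunit assembly, with earlier results of these data known. Of the 49 genes, 48 were among the 24241 genes with a named probe set, and DDX18 was not analysed here. Expression was measured on 6 Affymetrix arrays in HepG2, an established cell line from a human liver tumour. Total RNA was taken after 24 hours from cells given the solvent DMSO (3 arrays) or 0.75 µM verteporfin (3 arrays), a light-activated porphyrin drug that is also used to block the binding of YAP to TEAD factors. Both groups were the same unmodified line grown in RPMI medium, and light exposure is not stated in the labels. The labels number the replicates without saying whether each was its own culture. The p-values therefore rest on the spread among these arrays, part or all of which may be technical.

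Ribosomes are built in the nucleolus. RNA polymerase I transcribes a long precursor RNA, on which the small subunit processome forms and frees the small subunit RNA, while other factors assemble the large subunit. Small nucleolar ribonucleoproteins guide the chemical marks on the ribosomal RNA, those of the box C/D class methylating ribose and those of the box H/ACA class making pseudouridine. In liver cancer cells, as in other growing cells, this pathway is known to be highly active and to respond to growth signals and to the transcription factor MYC.

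The members moved in both directions and by small amounts. Of the 48 genes, 8 rose, 13 fell and 27 did not pass the test at an adjusted p of 0.05 (limma). Over all genes, 28.5% passed, 14.3% higher and 14.3% lower. Every member had a mean above the median signal of the arrays, 4.83 on the RMA log2 scale, and among the 12257 genes above that signal 51.9% passed, 26.3% higher and 25.6% lower. The members' share, 43.8%, lay between these shares, and no test of the difference was made. The genes above the median signal are not matched to the members in level: their median level was 7.605, and that of the members 9.29. The total RNA came from whole cultures, so a change in every cell and a change in a share of the cells cannot be told apart.

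The median log2 difference of the members, verteporfin minus DMSO, was -0.01, against 0.0049 over all genes and 0.02 over genes above the median signal. Their differences ran from -0.89 for UTP20 to 0.78 for RRP12. No member changed by 2-fold or more, whereas 5.73% of all genes and 11.1% of those above the median signal did. A difference of at least 0.5 log2 units was seen in 7 members (14.6%), against 16.9% of all genes and 31.9% of those above the median signal. The 3 verteporfin arrays lay entirely on one side of the 3 DMSO arrays for 33 members (68.8%), against 39.1% of all genes and 62.7% of genes above the median signal.

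**Figure D1:**
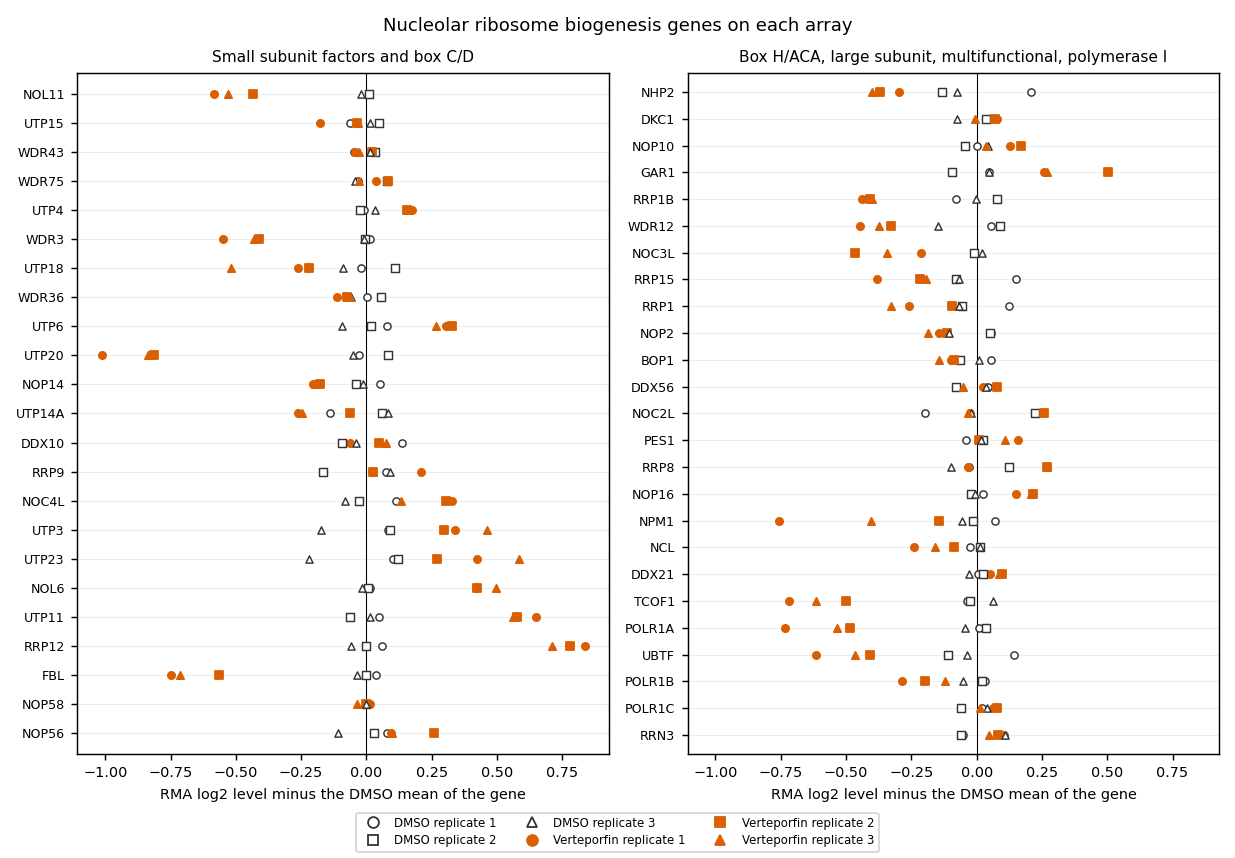
RMA log2 level of each of the 48 members on each array, minus the DMSO mean of that gene (x axis, log2 units). Open symbols are the 3 DMSO arrays and filled symbols the 3 verteporfin arrays, with 1 symbol shape per replicate number. UTP20, FBL, TCOF1 and POLR1A lie to the left with no overlap of the groups, RRP12 and UTP11 to the right, and the groups of NOP58 and WDR43 overlap.

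The calls differed in how far they held. Across 17 other fits, which changed the variance model, the filter or the arrays used, 3 of the 8 rises (RRP12, UTP11 and NOL6) and 8 of the 13 falls (UTP20, FBL, TCOF1, POLR1A, NOL11, UBTF, WDR3 and RRP1B) passed every time. The rises of UTP3, UTP6, UTP23, GAR1 and NOP16 and the falls of UTP18, NOP14, NHP2, NOC3L and WDR12 were each lost in at least 1 of them. Without replicate 1, 2 or 3 of both groups, the count of rises was 4, 5 and 3, and the count of falls 9, 10 and 9. Among the 13 members that fell, verteporfin replicate 1 was the lowest of the verteporfin arrays for 10. Without that array, 6 members rose and 11 fell. The members are described by role below. Each role holds 3 to 12 genes, and no count of a role was tested against other genes.

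Small subunit factors held the largest changes in both directions. UTP20, a very large scaffold protein of the small subunit processome, had levels of 9.86, 9.97 and 9.83 in DMSO and of 8.87, 9.07 and 9.05 in verteporfin. It fell by 0.89 ± 0.08 on the log2 scale (SE, as for all differences that follow, with n = 3 arrays in each group; adjusted p = 8.94e-05, limma), which is 1.85-fold. The groups stood well apart, with the lowest DMSO array above every verteporfin array. RRP12, a HEAT-repeat protein known from yeast for the export of both subunits, had levels of 8.79, 8.73 and 8.67 in DMSO and of 9.57, 9.51 and 9.44 in verteporfin. It rose by 0.78 ± 0.07 (adjusted p = 7.96e-05), the highest difference of the 48, and all verteporfin arrays lay above all DMSO arrays.

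UTP11, a small processome protein, showed levels of 9.52, 9.41 and 9.49 in DMSO and 10.12, 10.05 and 10.03 in verteporfin, and rose by 0.60 ± 0.06 (adjusted p = 0.000239). NOL6, the human counterpart of a yeast protein of the UTP-C subcomplex, was at 8.39, 8.38 and 8.36 in DMSO and at 8.80, 8.80 and 8.88 in verteporfin, and rose by 0.45 ± 0.06 (adjusted p = 0.00072). Both genes were higher on each verteporfin array than on any DMSO array. UTP3, whose yeast counterpart is a processome protein, gave 7.28, 7.29 and 7.03 in DMSO and 7.54, 7.50 and 7.66 in verteporfin (0.37 ± 0.09, adjusted p = 0.0182). UTP23, a processome protein with a nuclease-like fold, gave 6.63, 6.65 and 6.31 in DMSO and 6.96, 6.80 and 7.12 in verteporfin (0.43 ± 0.12, adjusted p = 0.0287). In both, DMSO replicate 3 was the low array and the groups did not overlap; without replicate 3 of both groups the UTP3 difference was 0.23 and that of UTP23 was 0.24, and neither passed.

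NOP14, which joins processome proteins, fell by 0.19 ± 0.06 (adjusted p = 0.0438), the weakest of the calls; it was lost in 10 of the 17 other fits. The other 4 members of this group did not pass. NOC4L, the partner of NOP14 in yeast, was at 0.25 ± 0.08 (adjusted p = 0.0557) with no overlap of the groups, and UTP14A, an activator of a processome helicase, was at -0.19 ± 0.09. The helicase DDX10 (0.02 ± 0.08) and RRP9, a protein specific to the U3 small nucleolar ribonucleoprotein (0.09 ± 0.09), had groups that overlapped. Of these 11 small subunit factors, 5 rose and 2 fell, with a median of 0.25. The shares among genes above the median signal were 26.3% higher and 25.6% lower.

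The UTP-A and UTP-B subcomplexes bind the precursor RNA first and seed the processome. Of 5 UTP-A members, 1 fell and 0 rose, beside 25.6% lower and 26.3% higher among genes above the median signal. So few genes cannot be set against these shares. NOL11, a UTP-A protein of vertebrates, was at 10.76, 10.76 and 10.73 in DMSO and at 10.16, 10.31 and 10.21 in verteporfin, and fell by 0.52 ± 0.06 (adjusted p = 0.000538). UTP4, also called cirhin, was at 11.32, 11.30 and 11.37 in DMSO and at 11.51, 11.48 and 11.49 in verteporfin, a difference of 0.16 ± 0.06 that did not pass (adjusted p = 0.0752). The arrays of the groups did not overlap for either gene. UTP15 gave 9.56, 9.67 and 9.64 in DMSO and 9.45, 9.59 and 9.59 in verteporfin, with overlapping groups (-0.08 ± 0.07, adjusted p = 0.493). The 95% intervals of the log2 difference were -0.16 to 0.12 for WDR43 and -0.12 to 0.19 for WDR75, both UTP-A propeller proteins.

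Of 4 UTP-B members, 1 rose and 2 fell, and the arrays of the groups did not overlap for any of the 4. Among genes above the median signal 51.9% passed and 62.7% had groups without overlap, and 4 genes are too few to set against these shares. WDR3, a propeller protein of UTP-B, was at 9.39, 9.37 and 9.37 in DMSO and at 8.83, 8.96 and 8.95 in verteporfin, and fell by 0.46 ± 0.06 (adjusted p = 0.000906). UTP18, another propeller protein, was at 8.73, 8.86 and 8.66 in DMSO and at 8.49, 8.53 and 8.23 in verteporfin, and fell by 0.33 ± 0.10 (adjusted p = 0.0363). UTP6, which has helical repeats, was at 9.38, 9.31 and 9.21 in DMSO and at 9.60, 9.62 and 9.57 in verteporfin, and rose by 0.30 ± 0.07 (adjusted p = 0.0114). WDR36, the fourth protein, was at -0.08 ± 0.06 (adjusted p = 0.41). Whether members of a subcomplex differed from each other in their change was not tested.

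**Figure D2:**
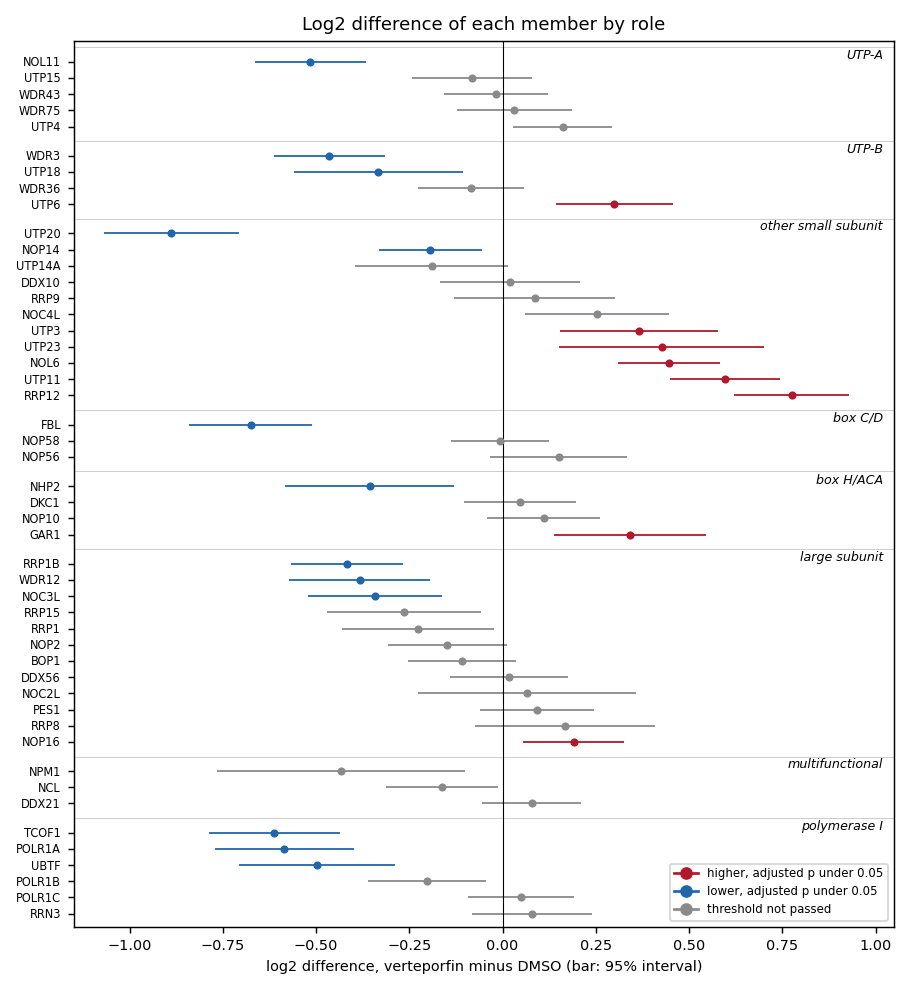
Log2 difference, verteporfin minus DMSO (x axis), of each member with its 95% interval from the limma fit, ordered by role. Red points rose and blue points fell at an adjusted p under 0.05, and grey points did not pass. The 3 falls among the polymerase I genes are TCOF1, POLR1A and UBTF, and 5 of the 8 rises stand among the other small subunit factors.

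Among the box C/D members, the enzyme fell and its scaffold proteins did not pass. FBL, or fibrillarin, the ribose methyltransferase, was at 10.55, 10.51 and 10.48 in DMSO and at 9.77, 9.95 and 9.80 in verteporfin. It fell by 0.68 ± 0.07 (adjusted p = 0.000217), or 1.60-fold, with every verteporfin array below every DMSO array. NOP56, a scaffold protein, was at 11.93, 11.87 and 11.74 in DMSO and at 11.94, 12.11 and 11.94 in verteporfin (0.15 ± 0.08, adjusted p = 0.235). The groups of NOP56 did not overlap. NOP58, its paralog, was at 12.35 on all DMSO arrays and at 12.36, 12.35 and 12.31 in verteporfin. The interval of its log2 difference, -0.14 to 0.12, is among the narrowest of the members.

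The box H/ACA core held 1 rise and 1 fall among 4 genes. These are too few to set against the 51.9% of genes above the median signal that passed. GAR1, a core protein that contacts the pseudouridine synthase, was at 7.45, 7.30 and 7.45 in DMSO and at 7.66, 7.90 and 7.67 in verteporfin, and rose by 0.34 ± 0.09 (adjusted p = 0.0204). NHP2, which binds the guide RNA, was at 8.88, 8.54 and 8.60 in DMSO and at 8.38, 8.30 and 8.27 in verteporfin, and fell by 0.36 ± 0.10 (adjusted p = 0.0274). The GAR1 call was lost in 5 of the 17 other fits and the NHP2 call in 6. The DMSO arrays of NHP2 were spread by replicate 1, the highest; without that array its difference was -0.25 (adjusted p = 0.0531). NOP10, the smallest core protein, was at 10.45, 10.41 and 10.49 in DMSO and at 10.58, 10.62 and 10.48 in verteporfin (0.11 ± 0.07, adjusted p = 0.294). DKC1, or dyskerin, the synthase itself, had an interval of -0.10 to 0.20.

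Of 12 large subunit factors, 3 fell, 1 rose and 8 did not pass, with a median of -0.13. Among genes above the median signal 25.6% fell and 26.3% rose. RRP1B was at 9.25, 9.40 and 9.32 in DMSO and at 8.88, 8.91 and 8.92 in verteporfin, and fell by 0.42 ± 0.06 (adjusted p = 0.00177); its paralog RRP1 was at -0.23 ± 0.09 (adjusted p = 0.103), also with no overlap of the groups. WDR12 forms a complex with PES1 and BOP1 that is needed to mature the large subunit RNA. Its levels were 10.53, 10.57 and 10.33 in DMSO and 10.03, 10.15 and 10.10 in verteporfin, and it fell by 0.38 ± 0.08 (adjusted p = 0.00854). The other proteins of that complex did not pass, PES1 at 0.09 ± 0.07 and BOP1 at -0.11 ± 0.06.

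NOC3L, which in yeast escorts early large subunit particles, was at 8.35, 8.35 and 8.38 in DMSO and at 8.15, 7.89 and 8.02 in verteporfin, and fell by 0.34 ± 0.08 (adjusted p = 0.0118). NOP16, known from yeast as a large subunit factor, was at 9.56, 9.52 and 9.53 in DMSO and at 9.69, 9.75 and 9.74 in verteporfin, and rose by 0.19 ± 0.06 (adjusted p = 0.0427), a call lost in 10 of the 17 other fits. For both genes the groups did not overlap. RRP15 (-0.26 ± 0.09, adjusted p = 0.062), the ribosomal RNA methyltransferases NOP2 (-0.15 ± 0.07) and RRP8 (0.17 ± 0.10), NOC2L (0.07 ± 0.13) and the helicase DDX56 (0.02 ± 0.07) did not pass.

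Of the abundant nucleolar proteins with several roles, 0 of 3 passed. Beside the 51.9% that passed among genes above the median signal, 3 genes are too few to compare. NPM1, or nucleophosmin, a histone and ribosome chaperone, was at 10.55, 10.47 and 10.43 in DMSO and at 9.73, 10.34 and 10.08 in verteporfin. Its verteporfin arrays were the most spread of any member (SD 0.308) and lay below all DMSO arrays, giving -0.43 ± 0.14 (adjusted p = 0.0577). NPM1 passed in 5 of the 17 other fits, and without verteporfin replicate 1 its difference was -0.27 (adjusted p = 0.0914). RefSeq names 50 pseudogenes after NPM1. Among the members that fell it names 3 after WDR12, 2 after NHP2 and 1 each after FBL and NOL11, and signal shared between such copies could not be told apart here.

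NCL, or nucleolin, which binds precursor ribosomal RNA, was at 12.98, 13.01 and 13.01 in DMSO and at 12.76, 12.92 and 12.84 in verteporfin (-0.16 ± 0.06, adjusted p = 0.114). DDX21, a helicase linked to both polymerase I transcription and processing, was at 11.19, 11.21 and 11.16 in DMSO and at 11.24, 11.29 and 11.27 in verteporfin (0.08 ± 0.06, adjusted p = 0.419). The groups did not overlap for either gene, although the differences were small.

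Of the 6 members that act in RNA polymerase I transcription, 3 fell and 0 rose, with a median of -0.35. Among genes above the median signal 25.6% fell and 26.3% rose, and a difference of these 6 from such genes was not tested. TCOF1, or treacle, which links polymerase I transcription with early processing, was at 9.43, 9.44 and 9.53 in DMSO and at 8.74, 8.96 and 8.85 in verteporfin, and fell by 0.61 ± 0.08 (adjusted p = 0.000512). POLR1A, the largest catalytic subunit, was at 9.37, 9.40 and 9.32 in DMSO and at 8.63, 8.88 and 8.83 in verteporfin, and fell by 0.59 ± 0.08 (adjusted p = 0.000878). UBTF, the factor that keeps ribosomal genes open and bound by the polymerase, was at 9.73, 9.47 and 9.55 in DMSO and at 8.97, 9.17 and 9.12 in verteporfin, and fell by 0.50 ± 0.09 (adjusted p = 0.00384). In all 3 genes verteporfin replicate 1 was the lowest array; without it the differences were -0.56, -0.51 and -0.44, and each still passed. The second largest subunit POLR1B was at -0.20 ± 0.07 (adjusted p = 0.0616), with no overlap of the groups. POLR1C, a subunit shared with polymerase III, and RRN3, the initiation factor that joins the polymerase to the promoter, had intervals of -0.09 to 0.19 and -0.08 to 0.24.

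The remaining polymerase I factors were measured for 10 genes, of which 5 rose and 2 fell, with a median of 0.14. The shares among genes above the median signal, 26.3% higher and 25.6% lower, were not tested against these 10. TAF1D, a subunit of the promoter selectivity factor, was at 9.98, 9.94 and 9.998 in DMSO and at 11.26, 10.96 and 10.91 in verteporfin, and rose by 1.07 ± 0.10 (adjusted p = 0.000106). TAF1A, another subunit of that factor, was at 5.56, 5.67 and 5.65 in DMSO and at 6.91, 6.38 and 6.77 in verteporfin, and rose by 1.06 ± 0.13 (adjusted p = 0.000513). Both were at least 2-fold higher, beyond any of the 48 members. POLR1H, a small polymerase subunit, rose by 0.62 ± 0.08 (adjusted p = 0.00064), and POLR1E, a subunit specific to polymerase I, fell by 0.38 ± 0.08 (adjusted p = 0.00782). POLR1E was lost in 2 of the 17 other fits. POLR1G, the other fall of this list, was at -0.60 ± 0.14 (adjusted p = 0.0133), with spread verteporfin arrays (SD 0.298).

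**Figure D3:**
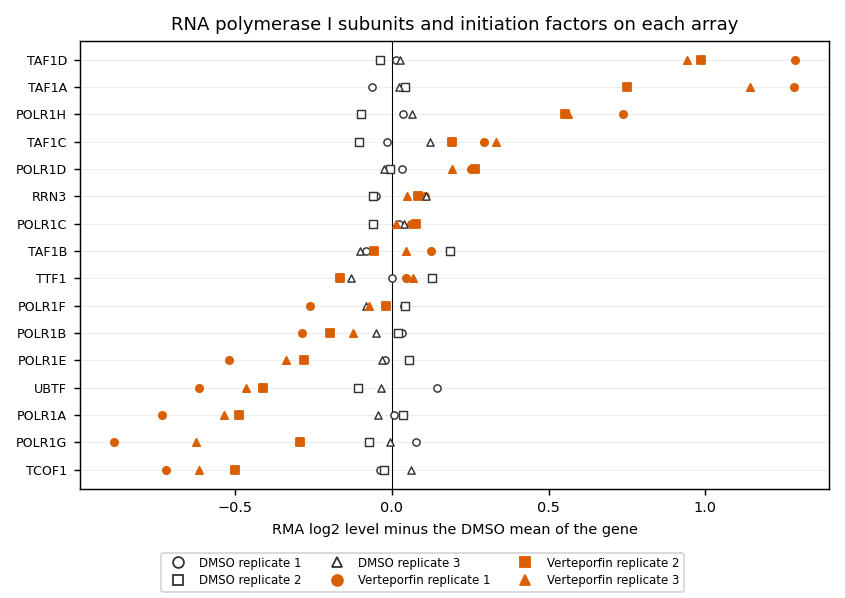
RMA log2 level of the 6 polymerase I members and the 10 other polymerase I factors on each array, minus the DMSO mean of the gene (x axis, log2 units). Open symbols are DMSO arrays and filled symbols verteporfin arrays. TAF1D and TAF1A stand about 1 log2 unit to the right. To the left without overlap stand the members TCOF1, POLR1A, UBTF and POLR1B and the other factors POLR1G and POLR1E. POLR1B did not pass.

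Other factors of ribosome assembly were counted from lists chosen by role. Beside these counts stand the shares among genes above the median signal, 26.3% higher and 25.6% lower. Of 34 other small subunit factors, 7 rose (20.6%) and 5 fell (14.7%), with a median of 0.05. RCL1, which takes part in cleavage of the precursor RNA, rose by 1.09 ± 0.07 (adjusted p = 1.86e-05), the helicase DDX49 by 0.83 ± 0.10 (adjusted p = 0.000412) and AATF by 0.51 ± 0.06 (adjusted p = 0.000402). NAT10, which acetylates cytidine in the small subunit RNA, fell by 0.54 ± 0.08 (adjusted p = 0.00104). Of 37 other large subunit factors, 14 rose (37.8%) and 5 fell (13.5%), with a median of 0.13. SBDS, which helps free the large subunit from an anti-association factor, rose by 0.69 ± 0.09 (adjusted p = 0.000866), as did WDR74 (0.49 ± 0.09, adjusted p = 0.00452) and RSL24D1 (0.43 ± 0.08, adjusted p = 0.00322). The giant remodelling ATPase MDN1 fell by 0.51 ± 0.08 (adjusted p = 0.00177).

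Taking the 3 lists as a whole, 26 of 81 genes rose and 12 fell, beside the 8 rises and 13 falls of the 48 members. The difference was not tested. All 81 lay above the median signal and 46.9% passed, 32.1% higher and 14.8% lower. Among genes above that signal 26.3% were higher and 25.6% lower. Their counts moved with the arrays used: without replicate 1, 2 or 3 of both groups, 15, 16 and 12 rose and 4, 11 and 8 fell. Of 61 cytosolic ribosomal protein genes, which encode the ribosome itself, 7 rose and 11 fell (29.5%, against 28.5% of all genes), with a median of 0.01. Of the 61, 52 lay above the median signal, where 51.9% of genes passed. Without replicate 1 of both groups 4 rose and 5 fell, and without replicate 2 of both groups 3 rose. Of 76 mitochondrial ribosomal protein genes, 8 rose (10.5%) and 31 fell (40.8%), with a median of -0.15. Of the 76, 75 lay above the median signal, where 26.3% of genes rose and 25.6% fell. In either direction 51.3% passed, near the 51.9% of genes above that signal. The difference by direction was not tested. Without DMSO replicate 1 the mitochondrial falls numbered 20, and without DMSO replicate 3 the mitochondrial rises numbered 5. Without replicate 1, 2 or 3 of both groups the mitochondrial falls numbered 15, 20 and 19.

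**Figure D4:**
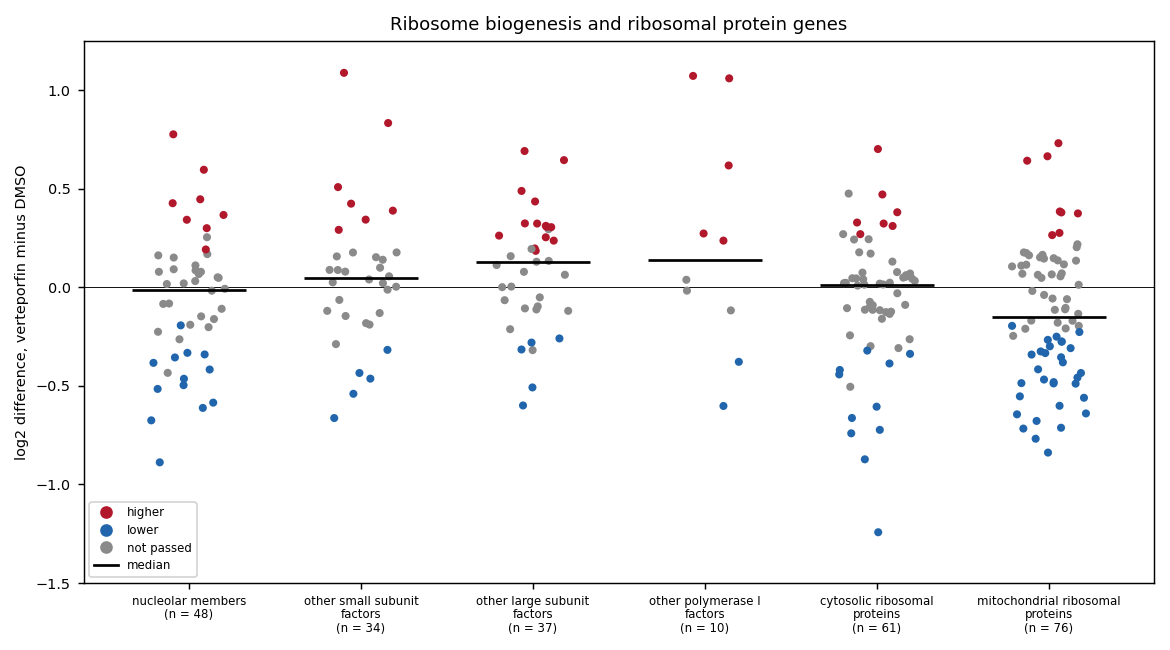
Log2 difference, verteporfin minus DMSO (y axis), of each gene in the 48 members and 5 comparison groups. Red points rose, blue points fell, grey points did not pass, and the black line is the median, which is -0.01 for the members and -0.15 for the mitochondrial ribosomal proteins.

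Promoter sequence was not used to choose the members, and none of the 4 motifs searched stood in most of their windows. RefSeq promoter windows (GRCh38.p14, 250 bases before to 50 after the start site) were found for 42 of the 48 members, 48 windows in all; UTP23, RRP12, NOP58, BOP1, RRP1B and TCOF1 had no entry. The letters CACGTG, the E-box bound by MYC and related factors, stood in 15 of these windows (31.3%, 95% Wilson interval 19.9% to 45.3%), against 7.26% of all windows and 9.64% of windows of genes above the median signal. CCGGAAG, the core of ETS factor sites, stood on either strand in 20 windows (41.7%), against 10.3% of all windows and 17.2% of those of genes above the median signal. CCAAT stood in 41.7% of member windows, against 34.6% of all and 35.2% of those of genes above the median signal. TATAAA stood in 1 member window (2.08%, interval 0.369% to 10.9%), against 11.5% of all and 6.24% of those of genes above the median signal, the last of which lies inside the interval. Some genes have more than 1 window, which the intervals treat as separate, and windows of 1 gene can share a site. By gene, CACGTG stood in 15 of the 42, CCGGAAG in 18, CCAAT in 19 and TATAAA in 1. These 4 sets of letters do not contain one another, and a match is a description of the window, not a binding site.

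CACGTG was present in 5 of the 12 windows of members that fell, 2 of the 7 windows of members that rose and 8 of the 29 windows of members that did not pass, so it was found with every outcome. The 30 bases around its first place in the window are shown for the 7 members that passed, 5′ to 3′ on the strand of the gene, with CACGTG in capitals, because they let the same letters be seen beside opposite changes. The windows are chr12:101280083-101280112 (+), chr19:39846356-39846385 (-), chr10:94362903-94362932 (-), chr17:51260445-51260474 (+), chr4:2963374-2963403 (-), chr4:109815781-109815810 (+) and chr9:33473894-33473923 (-), in the order given.
UTP20: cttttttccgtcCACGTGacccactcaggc
FBL: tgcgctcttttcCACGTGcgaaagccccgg
NOC3L: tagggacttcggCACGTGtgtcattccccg
UTP18: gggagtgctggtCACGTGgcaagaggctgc
NOP14: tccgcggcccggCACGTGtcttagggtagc
GAR1: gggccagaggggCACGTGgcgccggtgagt
NOL6: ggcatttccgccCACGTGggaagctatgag

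The first 5 of these genes fell, by 0.89, 0.68, 0.34, 0.33 and 0.19 on the log2 scale, and the last 2, GAR1 and NOL6, rose by 0.34 and 0.45. In UTP20 the letters began 10 bases before the start site. UTP18 held them at 2 places, 89 bases before the start site (shown) and 4 bases after it. In the other 5 they lay after it. UTP20 had the largest change of the 48, and the 250 bases before its start site (GRCh38.p14, chr12:101279855-101280104, plus strand) are given with CACGTG in capitals.
UTP20 promoter: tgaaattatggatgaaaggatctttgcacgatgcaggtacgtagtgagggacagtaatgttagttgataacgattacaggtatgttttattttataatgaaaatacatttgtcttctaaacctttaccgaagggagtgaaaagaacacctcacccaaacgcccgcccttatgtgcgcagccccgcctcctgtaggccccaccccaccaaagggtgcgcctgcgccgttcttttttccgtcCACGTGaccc

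The arrays of a group correlated at 0.995 to 0.997 across genes and those of different groups at 0.969 to 0.977. Markers of hepatocytes and HepG2 cells were measured for 7 genes, whose means ran from 10.7 to 13.4 in DMSO and from 8.75 to 12.5 in verteporfin. Of the 7, 6 fell, with log2 differences from -0.83 (ALB) to -2.44 (AFP), and SERPINA1 did not pass (adjusted p = 0.0741). Of 8 markers of leukocytes, endothelium and fibroblasts, 6 lay below the median signal in both groups, including PTPRC at 3.48 in DMSO; COL1A1 (6.57) and the lysosomal gene CD68 (10.2) lay above it, and CD68 rose by 0.26 (adjusted p = 0.0134). The part of these marker changes in the members' changes was not tested.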

How the data were processed

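Total RNA of HepG2 cells was measured on 6 Affymetrix arrays. The deposited values are log2 levels per probe set, and the submitters' processing notes name RMA, a method of background correction, quantile normalisation and probe summary. Once sorted, the 6 arrays held the same values, so changes are relative to each array's distribution and a shift of all transcripts could not be seen. The sources used here name neither the RMA version nor a genome build. Depth does not apply to arrays; their number limits the precision.

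The platform annotation gave 1 symbol for 24244 of 25582 probe sets; the brightest probe set stood for a gene, which left 24241 genes. Verteporfin minus DMSO was fitted over all of them with limma 3.58.1 in R 4.3.3 (lmFit, eBayes), two-sided, with Benjamini-Hochberg adjustment at 0.05. The fit was tested on simulated data with planted shifts, but recovery of shifts as small as most members' changes was not required. With 3 arrays against 3, exact permutation reaches no p below 0.1 and was not used. Probe sets differ in brightness. Levels of different genes are therefore compared only roughly, against the median signal and as group medians.

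The members and lists were chosen with earlier results of these data known. Every array is given for the 3 members of each role with the smallest adjusted p. Arrays are also given for the 6 members with the largest difference and every member that rose. From each other list, 4 genes are named by the same p, and POLR1G is named besides as the other fall of its list. Of those lists 81 of 86 genes had a named probe set.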

Additional observations from a re-analysis of the deposited data

How the results depend on the processing

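Of the 48 members, the calls of 3 of 8 rises, 8 of 13 falls and 20 of 27 genes that did not pass were the same in all 17 alternatives, and no called direction reversed. Same-numbered arrays did not deviate together (correlations -0.02, -0.11 and -0.01), so the numbers are not taken as pairs; with the replicate number as a block, 5 members rose in place of 8 and 12 fell. With arrays left out, the members' rises ranged from 3 to 8 and falls from 9 to 13, their median difference from -0.05 to -0.01, the other pathway genes' rises from 12 to 21 and falls from 4 to 12, the cytosolic ribosomal protein rises from 3 to 7 and falls from 5 to 11, and the mitochondrial ones' rises from 4 to 11 and falls from 15 to 28. Fits with arrays left out hold fewer samples. An intensity trend, robust estimation, array weights, a filter at the median signal, averaged probe sets, all probe sets and centring gave 8 to 9 rises and 13 to 16 falls. Searched on the gene's strand only, CCGGAAG stood in 25% of member windows, CCAAT in 18.8% and TATAAA in 0% (up to 7.41% by the Wilson interval); CACGTG reads the same on both strands. The share in windows of genes above the median signal was added after seeing the data. Signal was not separated from background, although every member lay above the median signal.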
